A study of Mus musculus with 40 samples.

Results

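Livers of ovariectomized C57BL/6J females that carried a pellet of dihydrotestosterone (DHT) were compared with livers of intact C57BL/6J females, 5 animals against 5. C57BL/6J is an inbred laboratory strain, and DHT is an androgen that binds the androgen receptor directly and is not converted to estrogen. The 10 arrays are those whose labels give the source entries Ovarectomized + dihydrotestosterone (animals 50 to 54) and Liver, Intact with female gender (animals 1 to 5), out of 40 arrays in 8 groups of 5. The females lost their ovaries at 8 weeks of age, received the pellet under the skin at 12 weeks and were killed at 14 weeks, fasted for 12 h, having been fed chow with 4% fat. The DHT pellet held 5 mg, was made to release over 21 days and gave 1 to 2 ng/ml in plasma, per the labels. The labels give the intact females the same strain, diet, fast and age at killing, and do not say whether they had sham surgery or a pellet, at which stage of the estrous cycle they were, or at what hour any animal was killed. The contrast therefore joins loss of the ovaries with the addition of DHT. Ovariectomized females with a placebo pellet (animals 16 to 20) divide it into 2 steps. Castrated males with the same DHT pellet (animals 59 to 63) give the same treatment in the other sex. They were set against intact males (animals 8 to 12) and against 5 castrated males with a placebo pellet. Castration was at 8 weeks of age and the pellet at 12 weeks, and all of these males were killed at 14 weeks. The DHT females were also set against 5 ovariectomized females with a 0.5 mg estradiol pellet, made to release over 21 days. The placebo and estradiol females had surgery, pellet and killing at the same ages as the DHT females. All of these male, placebo and estradiol animals were C57BL/6J, fasted for 12 h and fed chow with 4% fat.

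Gene expression in mouse liver depends strongly on sex. Males and females express different cytochrome P450s, sulfotransferases and transporters, and this pattern is known to follow the secretion of growth hormone, pulsed in males and near continuous in females, which reaches the hepatocyte through its receptor and the transcription factor STAT5B. Gonadal steroids act on this pattern largely through the pituitary, and androgens can also act in the liver itself. The liver also runs a circadian clock, in which Arntl drives its own repressors, and a fasting programme in which falling insulin turns on genes for fat use and glucose output.

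Each value is the log2 ratio of an animal's liver RNA, labelled Cy5, to a pool of RNA of all 40 livers, labelled Cy3, so 0 is the level of the pool and 1 unit is a 2-fold ratio. The array gave 23574 probes with 0 missing values, of which 12662 could be named, for 10842 genes. Over the 10 arrays the median ratio lay between -0.02 and 0.02 and the interquartile range between 0.13 and 0.30. Intensities were not used here, and precision rests on how many arrays a group had. The Y-linked gene Eif2s3y lay at -4.08 or below in these 10 animals and at 0.35 or above in the males, and all 20 females lay below all 20 males. Some pairs of arrays correlated below 0 over all probes, down to -0.38 between a DHT and an intact female and -0.47 in the whole series. The dyes are stated in the labels and every array was read the same way, so the direction was kept.

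DHT animal 53 stood apart from the other 4. Its position was taken probe by probe on a scale where 0 is the mean of the intact females and 1 the mean of the other 4 DHT animals, over the probes that passed in a fit without it with at least a 2-fold difference. The median position of animal 53 was 0.36 over 117 such probes, and 54 of them (46.2%) lay under 0.25 while 40 (34.2%) lay over 0.75. For animals 50, 51, 52 and 54, each placed in the same way, the medians were 1.00, 1.12, 1.00 and 1.13, with 1, 0, 1 and 0 probes under 0.25. Animal 53 was thus not midway on every gene. It lay at or near the intact female level on most of the sex-biased genes, though between the groups on Nudt7. On the clock and fasting genes it lay with the other DHT animals, as described for each below. Plasma DHT of single animals is not in the labels. Counts and differences between DHT and intact females that rest on animal 53 are given with and without it.

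**Figure D1:**
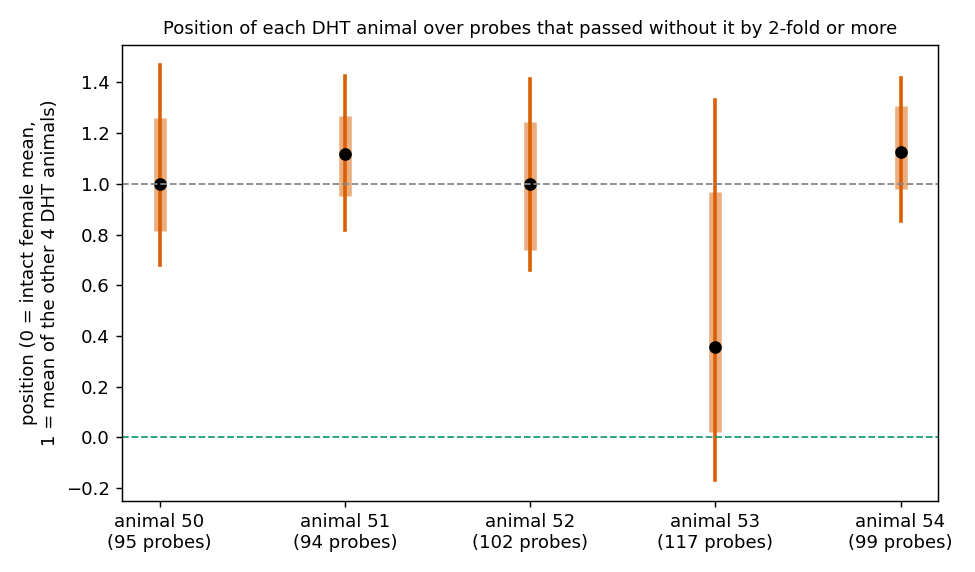
Position of each DHT animal between the intact female mean (0, green dashed line) and the mean of the other 4 DHT animals (1, grey dashed line), over probes that passed without that animal at 2-fold or more. Points are medians, thick bars run between the outer quartiles and thin bars between the outer deciles of probes; the median of animal 53 is 0.36 and those of the others lie between 1.00 and 1.13.

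Of the 23574 probes, 642 (2.72%) differed between DHT-treated ovariectomized and intact females at an adjusted p under 0.05 in limma, which is called passing here. Of these, 366 (1.55%) were higher and 276 (1.17%) lower with DHT, 251 differed by at least 1.5-fold and 105 by at least 2-fold. In 467 (1.98%) the 5 values of one group lay entirely outside those of the other, as they did in 1273 probes (5.4%) whether passing or not. The 384 of them with a usable name belong to 370 genes. Without animal 53, 713 probes passed (3.02%), 439 higher (1.86%) and 274 lower (1.16%), and 548 were shared, 85.4% of the first list and 76.9% of the second. Leaving out DHT animal 54 gave the fewest, 410. Each p measures the spread between animals, since each array is a separate animal.

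The genes known to be higher in female than in male liver were the most strongly lowered. Of 26 measured genes of that list, 10 were lower with DHT, 0 were higher, and the median difference was -0.61 on the log2 scale, against -0.02 over all probes. Without animal 53 the count was 12 and the median -0.84. The 10 were Sult3a1 and Sult2a1 (sulfotransferases), Cyp2b9, Cyp2b13, Cyp2c40 and Cyp17a1 (cytochrome P450s, the last a steroid hydroxylase and lyase), Hao2 (a peroxisomal hydroxy acid oxidase), A1bg (a secreted glycoprotein), and Slc22a26 and Slc22a27 (members of the organic anion transporter family). Acot3 and Trim24 joined them without animal 53.

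Upstream sequence was at hand for 8 of these 10 genes, from the RefSeq table of build GRCm38.p6, and was read over the 250 bases before each start. The motif TTCNNNGAA, the core letters of the element that STAT5 proteins recognise, which reads the same on both strands, was found in 3 of the 8: Sult3a1, A1bg and Slc22a26. It occurs in 7.02% of the 32851 upstream stretches of that table and, counted per gene over any of its starts, in 8.13% of 27025 genes, in 5 of 26 genes of the whole female-biased list that have a stretch there, in 3 of 24 of the male-biased list, and in 0 of the 7 male-biased genes that rose and have a stretch there. These are matches of letters in a short window, and binding was not measured. The stretches are shown with the match in capitals because these 3 genes carry some of the largest decreases. Sult3a1 is read from chr10:33857557-33857677 on the plus strand, with the match 109 to 101 bases before the start. A1bg is read from chr15:60921290-60921410 on the minus strand, with the match 84 to 76 bases before the start. Slc22a26 is read from chr19:7802744-7802864 on the minus strand, with the match 141 to 133 bases before the start.
Sult3a1: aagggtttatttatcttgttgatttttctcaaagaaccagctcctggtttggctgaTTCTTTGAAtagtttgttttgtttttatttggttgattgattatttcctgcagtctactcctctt
A1bg: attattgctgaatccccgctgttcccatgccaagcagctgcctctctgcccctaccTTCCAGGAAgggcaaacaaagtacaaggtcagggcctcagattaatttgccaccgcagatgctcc
Slc22a26: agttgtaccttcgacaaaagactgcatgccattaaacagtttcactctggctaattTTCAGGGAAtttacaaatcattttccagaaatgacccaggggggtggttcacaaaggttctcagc

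Sult3a1 had the largest decrease of the genes named here. It lay at 1.00, 0.65, 0.70, 0.57 and 0.32 in intact animals 1 to 5, and at -4.87, -3.89, -4.28, 0.95 and -4.83 in DHT animals 50 to 54. Animals 50, 51, 52 and 54 lay far below every intact female, and animal 53 lay among the intact females. The difference was -4.03 ± 0.64 (SE, adjusted p 0.000128 in limma), a 16.3-fold decrease, and -5.11 ± 0.40 (34.6-fold, adjusted p 7.76e-11) without animal 53. A second probe of Sult3a1 gave -0.74 (adjusted p 0.062), and passed without animal 53 (adjusted p 0.0017).

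A1bg was the most variable of these genes among intact females, at -0.43, -0.97, 2.25, 0.90 and 0.61, and lay at -3.11, -4.38, -4.01, 0.51 and -5.36 in the DHT animals. Again 4 of the 5 lay below all intact animals and animal 53 lay inside their range. The difference was -3.74 ± 0.77 (adjusted p 0.0032), and -4.68 ± 0.67 without animal 53. Slc22a26 lay between 0.17 and 0.95 in the intact females, between -3.31 and -2.75 in the same 4 DHT animals, and at 0.44 in animal 53. Its difference was -2.97 ± 0.56 (adjusted p 0.0013), and -3.66 ± 0.49 without animal 53.

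Cyp2b9 and Cyp2b13 are neighbouring P450 genes on chromosome 7 that are near copies of each other. Over the 250 bases before their starts 248 are the same (99.2%). The 120 bases that hold both differences are shown, with the differing bases in capitals, because both genes had the same 4 DHT animals below all intact females. Cyp2b9 is read from chr7:26173179-26173298 and Cyp2b13 from chr7:26061265-26061384, both on the plus strand.
Cyp2b9: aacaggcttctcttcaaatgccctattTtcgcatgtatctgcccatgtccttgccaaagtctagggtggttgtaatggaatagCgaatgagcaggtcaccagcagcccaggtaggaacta
Cyp2b13: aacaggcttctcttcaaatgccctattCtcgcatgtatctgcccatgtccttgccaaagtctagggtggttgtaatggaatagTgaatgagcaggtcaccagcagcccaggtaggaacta

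Cyp2b13 lay at 0.48, 0.80, 0.78, 0.68 and 0.70 in the intact females and at -3.78, -3.29, -4.36, 1.14 and -3.84 in the DHT animals. Cyp2b9 lay at 0.46, 0.55, 0.93, 0.48 and 0.77, and at -2.17, -2.59, -3.18, 0.76 and -2.99. For both, 4 DHT animals lay below all intact females, and animal 53 lay above all intact females for Cyp2b13 and among them for Cyp2b9. The differences were -3.52 ± 0.72 for Cyp2b13 (adjusted p 0.0031) and -2.67 ± 0.61 for Cyp2b9 (adjusted p 0.0082), and -4.51 and -3.37 without animal 53. A second probe of each gave -0.57 for Cyp2b13 (adjusted p 0.061) and -0.18 for Cyp2b9 (adjusted p 0.12), and both passed without animal 53 (adjusted p 0.0021 and 0.018). The probe sequences were not used here, so how far each probe also reads the other gene was not tested.

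Sult2a1, which sulfates bile acids and hydroxysteroids, lay between 1.15 and 1.58 in the intact females. The DHT animals 50 to 54 lay at -3.51, -2.70, -3.33, 1.90 and -2.98. The difference was -3.49 ± 0.61 (adjusted p 0.00047), with -1.74 (adjusted p 0.013) on a second probe, and -4.50 ± 0.40 without animal 53. Hao2 lay between -0.01 and 1.47 in the intact females, between -4.20 and -3.39 in the same 4 DHT animals and at 1.36 in animal 53, a difference of -3.42 ± 0.61 (adjusted p 0.00069), and -4.45 ± 0.40 without it. Cyp17a1, which makes androgen precursors in the gonads and is also expressed in mouse liver, lay between -0.27 and 0.79 in the intact females. It lay between -2.56 and -2.10 in the 4 DHT animals and at 0.13 in animal 53, a difference of -2.21 ± 0.44 (adjusted p 0.0024), and -2.71 ± 0.40 without it. Slc22a27 (-1.81 ± 0.37) and Cyp2c40 (-1.54 ± 0.34), both named after their values were seen, had the same arrangement, with -2.37 and -1.89 without animal 53. The 3 further probes of Cyp2c40 gave -0.64, -0.37 and 0.18, and 0 of them passed, at adjusted p of 0.32, 0.48 and 0.45 in limma. Intact males set side by side lay at a mean of -4.43 for Sult3a1, -5.45 for Cyp2b13, -4.09 for Hao2 and -2.91 for Sult2a1, with SDs of 0.31, 0.46, 0.30 and 0.47 (n = 5).

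Genes known to be higher in male liver moved the other way. Of 22 measured genes of that list 8 were higher with DHT, 0 were lower, and the median difference was 0.72. Without animal 53 the count was 11 and the median 0.91, with Elovl3, Cyp4a12b and Slco1a1 added. The 8 were Hsd3b5, Cyp2d9, Nat8, Cyp4a12a, Nudt7, C9, Egfr and Bmf.

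Hsd3b5, a 3-ketosteroid reductase that inactivates DHT, lay at -3.92, -4.71, -3.47, -3.66 and -3.67 in the intact females. It lay at 0.10, 1.38, -0.16, -3.87 and -0.22 in DHT animals 50 to 54. The 4 DHT animals lay at least 3 units above every intact female, and animal 53 lay within the range of the intact females. The difference was 3.33 ± 0.73 (10.1-fold, adjusted p 0.0058), and 4.16 ± 0.66 (17.9-fold) without animal 53. A second probe named for Hsd3b5 gave -0.03 (adjusted p 0.85).

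Cyp2d9, a steroid hydroxylase, lay at -2.94, -3.19, -3.66, -3.26 and -2.88 in the intact females and at -0.12, 0.53, 0.34, -3.44 and 0.08 in the DHT animals, so animal 53 was again the exception. The difference was 2.66 ± 0.42 (adjusted p 0.000129), and 3.39 ± 0.26 without animal 53. Nat8, an acetyltransferase, differed in all 5 animals: it lay between -3.27 and -2.64 in the intact females, between -0.72 and -0.18 in 4 DHT animals and at -2.39 in animal 53. Its difference was 2.02 ± 0.34 (adjusted p 0.00028), and 2.42 ± 0.30 without animal 53.

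Cyp4a12a, a fatty acid hydroxylase, lay between -2.04 and -1.31 in the intact females, between 0.26 and 0.60 in 4 DHT animals and at -1.40 in animal 53, a difference of 1.67 ± 0.35 (adjusted p 0.0041), and 2.04 ± 0.33 without it. Nudt7, a peroxisomal coenzyme A hydrolase, rose by 1.52 ± 0.31 (adjusted p 0.0032), and all 5 DHT animals lay above all intact females, animal 53 least so at -0.48. C9, the last component of the complement pore, rose by 1.32 ± 0.32, Egfr, the receptor for epidermal growth factor, by 1.16 ± 0.29, and Bmf, a promoter of cell death, by 1.08 ± 0.25. Without animal 53 these were 1.58, 1.54 and 1.32. Egfr and Bmf were named after their values were seen. Elovl3, a fatty acid elongase, had a difference of 1.27 ± 0.41 that did not pass (adjusted p 0.095), and passed without animal 53 at 1.70 ± 0.39 (adjusted p 0.0083). Cyp7b1, an oxysterol hydroxylase, lay between -1.79 and -1.44 in 4 DHT animals, at -2.63 in animal 53 and at -2.72 or below in the intact females, without overlap. Its difference of 1.16 ± 0.68 did not pass (adjusted p 0.44). The SE uses the spread of all 8 groups, and Cyp7b1 ran from -2.92 to 1.35 in the estradiol females. The level of intact males was higher still for most of the 8: 1.66 for Hsd3b5, 1.80 for Nat8 and 1.67 for Cyp4a12a, with SDs of 0.38, 0.21 and 0.23 (n = 5), against means of -0.55, -0.81 and 0.09 over the 5 DHT females.

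**Figure D2:**
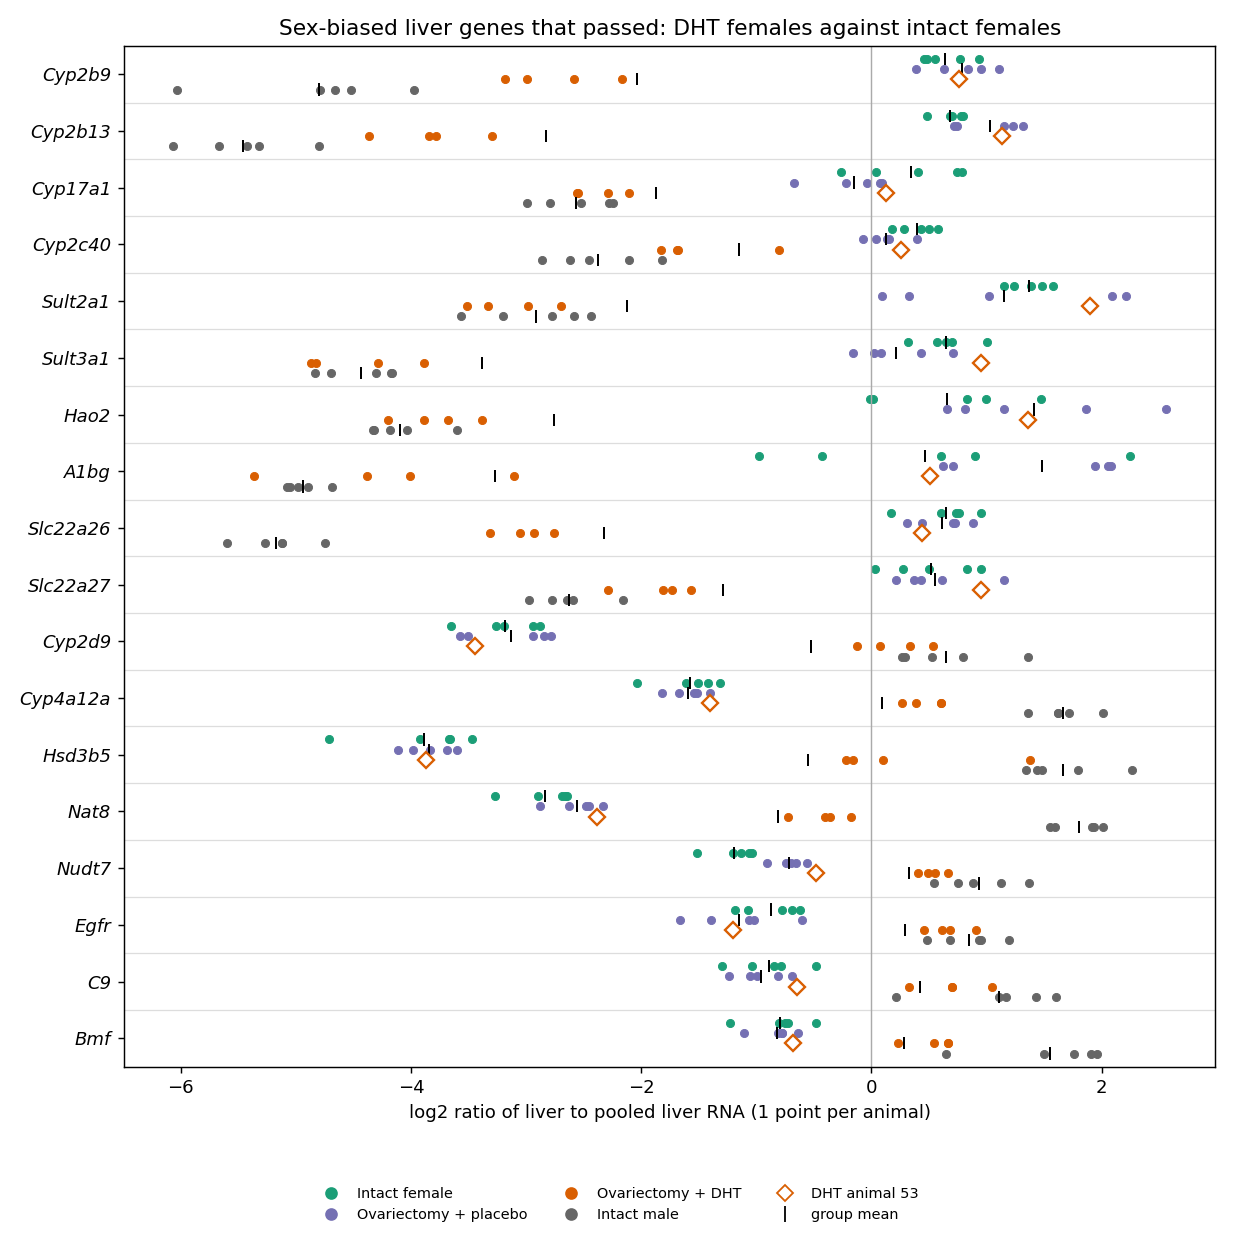
Log2 ratio to the pool (horizontal axis) of the 10 female-biased and the 8 male-biased genes that passed, with 1 point per animal for intact females, placebo and DHT ovariectomized females and intact males, and a bar at each group mean. The open diamond is DHT animal 53, which lies with or beside the intact females on most of the 18 genes and between the groups on Nudt7. The other 4 DHT animals lie towards the intact males.

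The hormone axes were described by 3 lists. Of 9 measured hormone receptor genes 0 passed in limma, and 1 was higher at an unadjusted p under 0.05. Esr1, the main estrogen receptor of liver, had a difference of -0.12 ± 0.12 (adjusted p 0.64). No probe was named for the androgen receptor. Of 20 genes of the growth hormone axis, 2 were lower, Igfbp1 and Socs1, an inhibitor of cytokine signalling (-0.59 ± 0.16, adjusted p 0.034, and 0.061 without animal 53). Ghr, the growth hormone receptor, had 0.62 ± 0.23 (adjusted p 0.17). Igf1 had -0.23 ± 0.18 and Socs2 -0.70 ± 0.41, neither of which passed. Both are known STAT5 targets and were named after their values were seen. Of 19 genes of steroid metabolism 2 were higher, Hsd3b5 and Hsd3b2, and 2 lower, Sult2a1 and Cyp17a1. Hsd3b2, a hydroxysteroid dehydrogenase of the same family, did not follow animal 53 back to the intact level. It lay between -1.37 and -0.78 in the intact females and at 0.28, 1.02, 0.56, 0.35 and 0.78 in the DHT animals, a difference of 1.63 ± 0.24 (adjusted p 5.44e-05) without overlap.

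The placebo group divides the difference into its 2 steps. Between placebo-treated ovariectomized and intact females 8 probes passed (0.0339%), 3 higher (0.0127%) and 5 lower (0.0212%), and between DHT and placebo in ovariectomized females 271 passed (1.15%), 149 higher (0.632%) and 122 lower (0.518%). Without animal 53 the second count was 443, without animal 50 it was 89, and without placebo animal 20 the first was 23. The 2 steps share the placebo animals and add up to the whole difference, so their values are given side by side and no relation between them was tested. Of the 642 probes, 448 (69.8%) had the larger of the 2 differences in the DHT step and 194 (30.2%) in the ovariectomy step. The same split over all probes was not counted, and the 642 were chosen on the sum of the 2 steps. These shares therefore only describe the 642. Of the 72 genes examined singly that passed between DHT and intact females, 35 passed in the DHT step only, 1 (Cdkn1a) in the ovariectomy step only and 2 (Pdk4 and Btg1) in both. The other 34, Arntl, Per2, Igfbp1, Irs2 and Insig1 among them, passed in neither, so their step was not resolved.

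The sex-biased genes moved in the DHT step. Over the female-biased list the median was 0.02 in the ovariectomy step, with 0 of 26 passing in limma and 4 at an unadjusted p under 0.05, and -0.60 in the DHT step, with 9 lower. Over the male-biased list the medians were -0.0034 and 0.72, with 0 and 8 of 22 passing, and 0 at an unadjusted p under 0.05 in the first. Hsd3b5 differed by 0.04 ± 0.73 and then by 3.29 ± 0.73, Sult3a1 by -0.43 ± 0.64 and then by -3.60 ± 0.64. Without animal 53 the DHT step was 4.12 ± 0.66 for Hsd3b5 and -4.68 ± 0.40 for Sult3a1. Hao2 was at 0.75 ± 0.61 in the ovariectomy step, which did not pass, and at -4.17 ± 0.61 with DHT (adjusted p 0.00038).

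For some other genes the difference in the ovariectomy step was as large or larger. Cdkn1a, an inhibitor of the cell cycle that fasting and glucocorticoids raise, fell by 1.72 with ovariectomy (adjusted p 0.0014) and differed by -0.45 in the DHT step (adjusted p 0.52). Pdk4 fell in both, by 1.32 (adjusted p 0.039) and by 1.09 (adjusted p 0.022). Btg1, an antiproliferative gene, also fell in both, by 0.56 (adjusted p 0.039) and by 0.58 (adjusted p 0.0047). Insig1 had 1.07 (adjusted p 0.091) and 0.28, Arntl -1.17 (adjusted p 0.096) and -0.92 (adjusted p 0.078). Bhlhe40, a clock repressor named after its values were seen, had 1.25 (adjusted p 0.056) and -0.10. Placebo animal 20 lay nearer to the intact females than the other 4 placebo animals on several of these genes, at 0.73 for Arntl against -0.48 to -0.16, and without it 23 probes passed in the ovariectomy step.

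**Figure D3:**
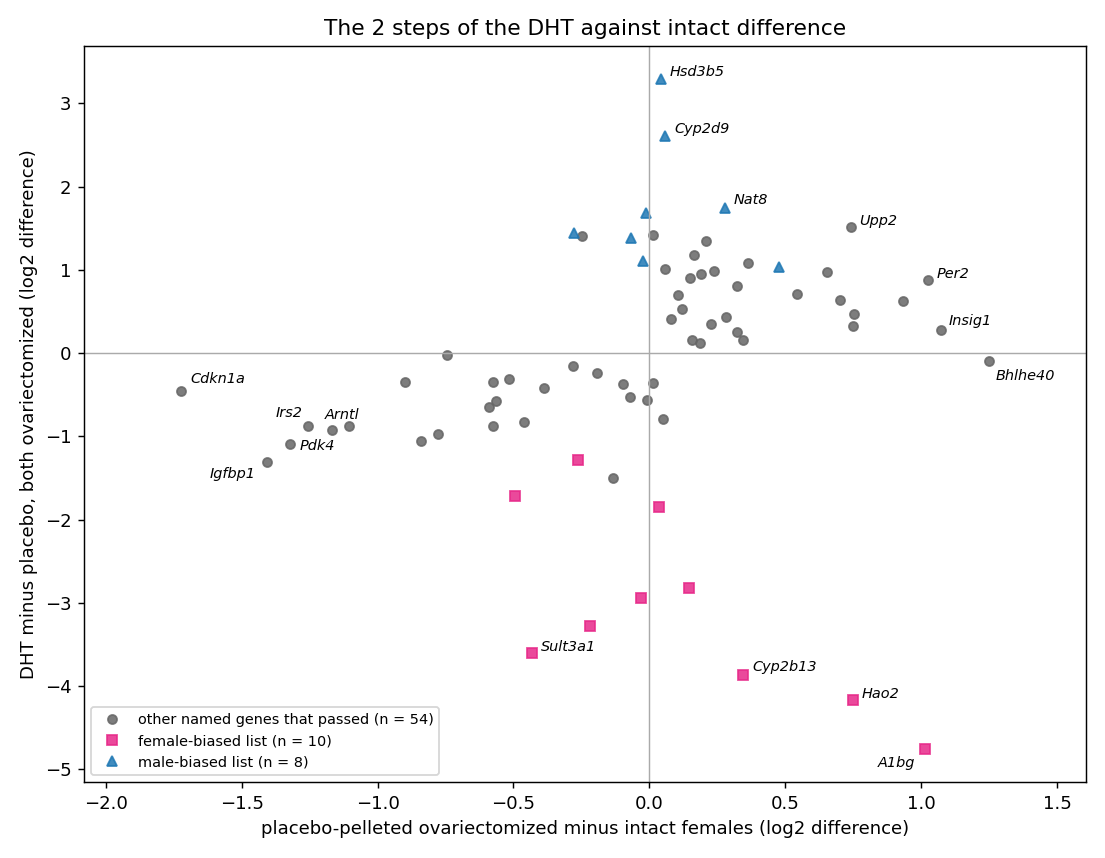
Log2 difference in the ovariectomy step (placebo minus intact, horizontal axis) and in the DHT step (DHT minus placebo, vertical axis) for the 72 named genes that passed in DHT against intact females, with 1 point per gene. The 18 sex-biased genes (squares and triangles) spread along the vertical axis, while Cdkn1a, Pdk4, Igfbp1, Arntl, Insig1 and Per2 lie away from 0 on the horizontal axis; both axes use the placebo animals.

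Of the 14 measured genes of the 2 clock lists 5 passed, and in each of these the 2 groups did not overlap. Arntl, the activator at the core of the clock, lay at 1.13, 0.88, 1.22, 1.09 and 1.01 in the intact females, at -0.71, -0.98, -1.04, -1.42 and -0.98 in the DHT animals, and at -0.16, -0.27, -0.35, -0.48 and 0.73 in the placebo animals. Every DHT animal, number 53 included, lay below every intact and every placebo animal. The difference from the intact females was -2.09 ± 0.26 (4.25-fold, adjusted p 3.61e-06).

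Per2, a repressor of the clock, lay at -0.96, -1.51, -1.74, -0.96 and -1.25 in the intact females and at 0.22, 0.81, 0.33, 1.12 and 0.65 in the DHT animals, a difference of 1.91 ± 0.30 (adjusted p 0.000105). Animal 53 was the highest of the 10. Nr1d2, a nuclear receptor that represses Arntl, rose by 1.23 ± 0.17 (adjusted p 2.05e-05), and a second probe gave -0.03. Dbp, a clock output gene, rose by 0.32 ± 0.09 (adjusted p 0.032, and 0.053 without animal 53). Nfil3, which opposes Dbp at the same sites, fell by 0.92 ± 0.20 (adjusted p 0.0042), and Usp2, a rhythmic deubiquitinase named after its values were seen, rose by 1.13 ± 0.14 (adjusted p 2.01e-06). In these genes the 5 values of each group did not overlap. Nr1d1, the close relative of Nr1d2, had 0.67 ± 0.22 and did not pass (adjusted p 0.10), while it rose by 1.16 ± 0.22 in the ovariectomy step (adjusted p 0.039).

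Of 9 measured clock repressors and outputs 3 were higher and 0 lower, and of 5 genes of the opposite phase 2 were lower and 0 higher. An index per animal, the mean log2 ratio of the 9 minus that of the 5, ran from -0.84 to -0.53 in the intact females and from 0.28 to 0.70 in the DHT animals, with 0.70 in animal 53. It ran from -0.37 to 0.28 in the placebo females, from -0.62 to -0.23 in the intact males and from 0.28 to 0.50 in the castrated males with DHT. The hour of killing is not in the labels, so the index and the group cannot be told apart. With the index as a covariate in the same model, 29 probes passed between DHT and intact females, 5 higher and 24 lower, and 129 higher and 123 lower probes passed between DHT and placebo. In that fit 2 of the 26 female-biased genes were lower and 0 of the 22 male-biased genes passed, with values of -4.42 for Sult3a1 (adjusted p 0.13), -5.60 for Sult2a1 (adjusted p 0.01) and 3.64 for Hsd3b5 (adjusted p 0.45). Arntl, which is itself part of the index, was at -0.12, Igfbp1 at -0.22 and Pdk4 at -1.44, none of which passed. For Sult3a1, Sult2a1 and Hsd3b5 the differences were not smaller than without the covariate, while those of Arntl, Igfbp1 and Pdk4 were. The index did not overlap between the 2 groups, so adjusting for it lowers the precision of the difference between them. What part the clock has in these genes was not tested.

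**Figure D4:**
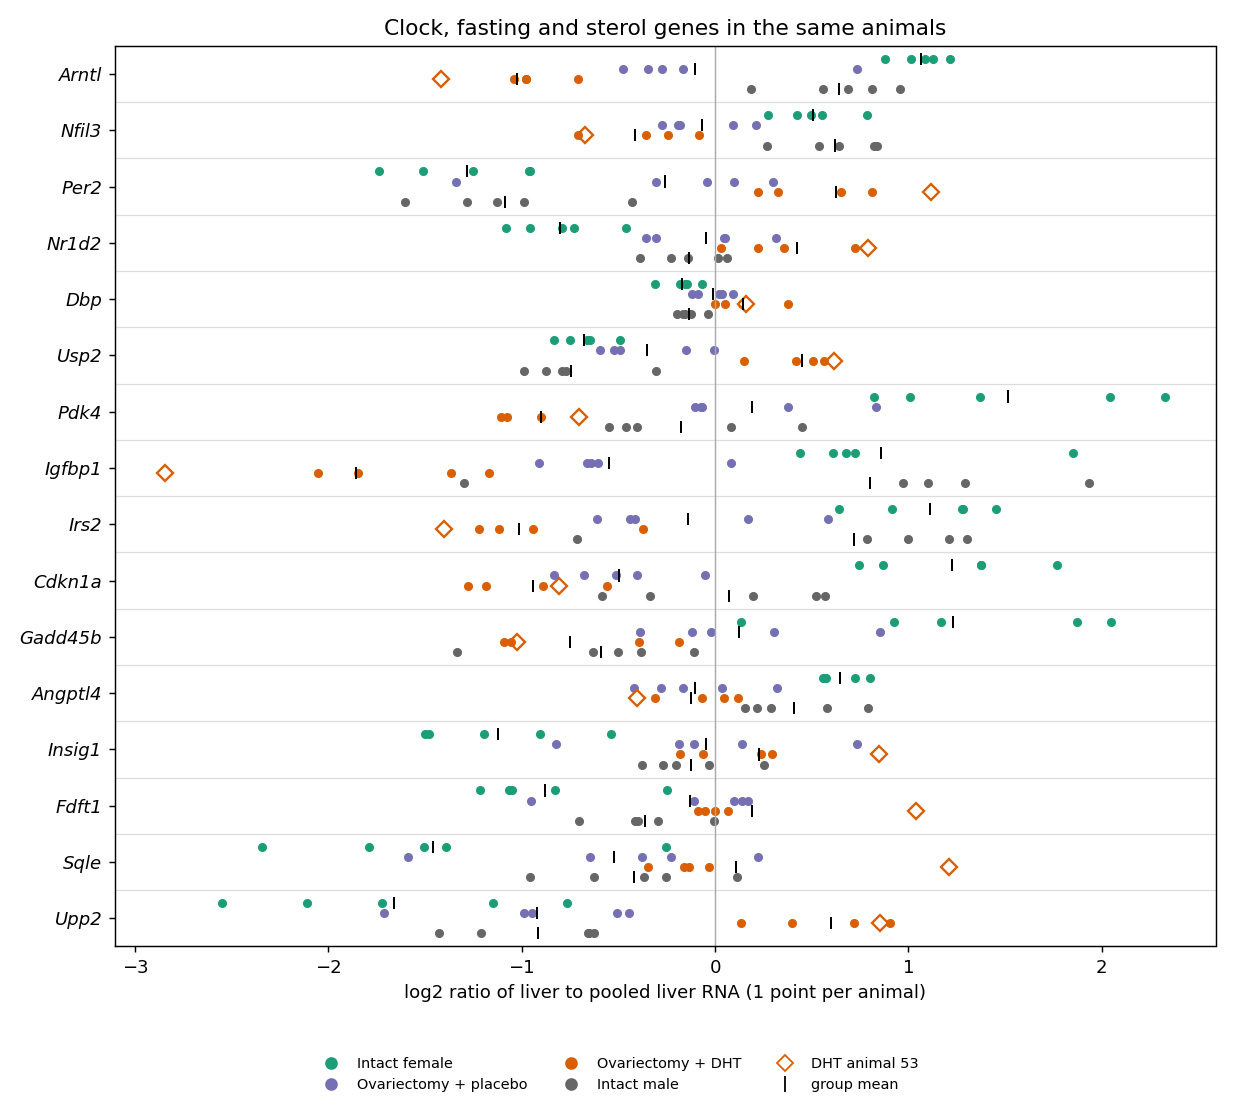
Log2 ratio to the pool (horizontal axis) of 16 clock, fasting and sterol genes, with 1 point per animal in the same 4 groups and a bar at each group mean. The open diamond, DHT animal 53, lies with or beyond the other DHT animals here, and the placebo animals lie mostly between the DHT and intact females.

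Several genes known to rise in fasting or at low insulin were lower in the DHT females. Igfbp1, a binding protein for insulin-like growth factors that insulin suppresses, had the largest decrease among genes whose groups did not overlap. It lay at 0.68, 1.85, 0.61, 0.44 and 0.72 in the intact females and at -1.85, -2.05, -1.37, -2.85 and -1.17 in the DHT animals, a difference of -2.72 ± 0.49 (6.57-fold, adjusted p 0.00071). Pdk4, the kinase that shuts pyruvate oxidation in fasting, lay at 2.04, 2.33, 1.01, 1.37 and 0.82, and at -0.72, -1.08, -1.11, -0.70 and -0.90. Its difference was -2.42 ± 0.25 (5.34-fold, adjusted p 2.07e-07). Animal 53 was the lowest of the 10 for Igfbp1 and, with animal 50, the highest of the DHT animals for Pdk4, and neither gene overlapped between the groups.

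Irs2, an adaptor of the insulin receptor that rises when insulin is low, fell by 2.13 ± 0.30 (adjusted p 2.08e-05), and a second probe gave -0.70 (adjusted p 0.06). Cdkn1a lay at 1.77, 1.37, 0.87, 1.38 and 0.75 in the intact females and between -1.28 and -0.56 in the DHT animals, a difference of -2.17 ± 0.25 (adjusted p 1.11e-06). Gadd45b, a stress-induced gene, fell by 1.98 ± 0.31 (adjusted p 0.000129). Of 22 genes of fatty acid oxidation and fasting 4 were lower and 0 higher, with a median of -0.26. They were Pdk4, Angptl4, an inhibitor of lipoprotein lipase (-0.77 ± 0.16, adjusted p 0.0032), Fgf21, a fasting hormone (-0.43 ± 0.10, adjusted p 0.00685), and Ehhadh, a peroxisomal enzyme (-0.82 ± 0.22, adjusted p 0.027, and 0.055 without animal 53). Of 16 genes linked to glucocorticoids 3 were lower, Cdkn1a, Gadd45b and Angptl4, and the median was -0.18.

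Of 19 genes of glucose metabolism 1 was higher, Pfkfb3, which stimulates glycolysis (0.81 ± 0.21, adjusted p 0.026), and 2 were lower, Irs2 and Gpd2, a mitochondrial glycerol phosphate dehydrogenase (-0.57 ± 0.16, adjusted p 0.047). Insig2, which holds the sterol sensor in the endoplasmic reticulum and is raised by fasting, fell by 1.25 ± 0.28 (adjusted p 0.0077). Its partner Insig1, a target of the sterol-regulated factor SREBP, went the other way. Insig1 lay at -1.19, -1.48, -1.50, -0.54 and -0.90 in the intact females and at 0.29, -0.06, -0.18, 0.85 and 0.24 in the DHT animals, a difference of 1.35 ± 0.24 (adjusted p 0.00062).

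Of 16 measured genes of cholesterol synthesis 5 were higher and 0 lower, with a median of 0.33, and animal 53 carried part of this. They were Insig1, Fdft1 and Sqle, the enzymes that make and oxidise squalene (1.07 ± 0.23 and 1.57 ± 0.38, adjusted p 0.0042 and 0.016), Idi1, an isoprenoid isomerase (0.57 ± 0.16, adjusted p 0.039), and Lss, lanosterol synthase, named after its values were seen (0.31 ± 0.09, adjusted p 0.0497). Sqle had values of -0.03, -0.16, -0.35, 1.21 and -0.14 in DHT animals 50 to 54, the highest being animal 53, and lay between -2.34 and -0.25 in the intact females. Fdft1 lay between -0.09 and 0.06 in those 4 and at 1.04 in animal 53. Without animal 53 only Insig1 and Fdft1 of the 16 passed, the median was 0.26, and Sqle and Idi1 had adjusted p of 0.061 and 0.14. Of 19 genes of fatty acid synthesis 0 passed in limma, with a median of 0.24, while 6 were higher and 1 lower at an unadjusted p under 0.05.

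Among the other genes with the largest differences and no overlap, Upp2, a liver uridine phosphorylase, lay at -0.77, -1.72, -2.55, -2.11 and -1.15 in the intact females and at 0.72, 0.40, 0.13, 0.85 and 0.91 in the DHT animals. Its difference was 2.26 ± 0.30 (adjusted p 8.5e-06), and a second probe gave 0.02. Adh4, a retinol and alcohol dehydrogenase, rose by 1.45 ± 0.22 (adjusted p 5.98e-05), and Aox3, an aldehyde oxidase, by 1.34 ± 0.29 (adjusted p 0.005). Animal 53 lay close to the intact range for Aox3, at -0.72 against -0.74 at most, and between the groups for Adh4, at 0.14. Clec2h, a lectin-like receptor, rose by 1.55 ± 0.33 (adjusted p 0.0048), Stbd1, which tethers glycogen, by 1.34 ± 0.19 (adjusted p 4.5e-05), and Hes6, a transcriptional regulator, by 1.25 ± 0.16 (adjusted p 3.54e-06).

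Defb1, an antimicrobial peptide, lay at 1.11, 1.14, 0.76, 1.22 and 0.78 in the intact females, at -1.65, -1.33, -0.58, -0.30 and -0.60 in the DHT animals and between -0.10 and 0.37 in the placebo animals. The difference was -1.89 ± 0.22 (3.72-fold, adjusted p 8.95e-07), and the placebo animals lay between the groups without overlapping either. Clpx, a mitochondrial chaperone that activates the first enzyme of heme synthesis, fell by 1.75 ± 0.23 (adjusted p 8.41e-06), with -1.45 on a second probe (adjusted p 0.00011). H1f2, a linker histone, fell by 1.45 ± 0.22 and Ndrg1, a stress-responsive gene, by 1.28 ± 0.22. Tubb2a, a tubulin, fell by 1.23 ± 0.23, with -0.80 and -0.57 on further probes, both of which passed.

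Heme synthesis genes moved in both directions. Of 16 genes of heme and iron handling 2 were higher and 2 lower. Alas1, the rate-limiting enzyme of heme synthesis in liver, rose by 1.23 ± 0.25 (adjusted p 0.0034) in all 5 DHT animals, which lay between 0.22 and 0.53 against -1.68 to -0.30. Alas2, its erythroid form, rose by 1.14 ± 0.24 (adjusted p 0.0036), while animal 53 lay at the intact level, at -0.79, and the difference without it was 1.41 ± 0.22. Clpx and Uros, a later enzyme (-0.46 ± 0.11, adjusted p 0.008), were lower. Alas2 was the only one of 9 measured erythroid markers that passed, and 2 were higher at an unadjusted p under 0.05.

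Of 26 cell cycle genes 4 were lower and 0 higher, and without animal 53 the same 4 were lower and Ccne1, a cyclin, was higher. They were Cdkn1a, Btg1 (-1.14 ± 0.11, adjusted p 6.05e-08, with -0.34 on a second probe, adjusted p 0.003), and the cyclins Ccnd1 (-0.75 ± 0.20, adjusted p 0.037) and Ccnd2 (-0.34 ± 0.09, adjusted p 0.03). Both inhibitors and drivers of division are thus among the 4. Of 29 complement and coagulation genes 4 were higher and 0 lower. Beside C9 these were C2, a protease of the classical pathway (0.51 ± 0.09, adjusted p 0.00075), Masp1 of the lectin pathway (0.49 ± 0.09, adjusted p 0.0015) and Klkb1, plasma prekallikrein (0.65 ± 0.17, adjusted p 0.027). The list's median was -0.05 and 9 of its genes were lower at an unadjusted p under 0.05.

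Single members passed in other lists: Gldc, the glycine cleavage enzyme, among 21 amino acid genes (-0.80 ± 0.15, adjusted p 0.00099), Apom, a carrier of sphingosine phosphate, among 17 lipoprotein genes (-0.44 ± 0.12, adjusted p 0.029), Atp5c1 of ATP synthase among 15 respiratory genes (0.57 ± 0.16, adjusted p 0.043) and Dnaja1, a co-chaperone, among 11 heat shock genes (0.72 ± 0.18, adjusted p 0.021). Atp5c1 had 3 further probes at 0.20, 0.12 and 0.58, of which the last passed, and Dnaja1 3 at 0.25, 0.36 and 0.05, of which 0 passed in limma. Atp5c1 and Dnaja1 did not pass without animal 53. In limma 0 genes passed of 19 for bile acids, 22 P450s for foreign compounds, 21 for glutathione, 22 of the acute phase, 19 of the unfolded protein response, 19 of the interferon response and 7 of MHC class II. At an unadjusted p under 0.05 these lists had 3, 4, 4, 0, 2, 0 and 0 genes higher and 2, 2, 1, 5, 2, 5 and 1 lower. Without animal 53 Slco1a1, Abcb11 and Cyp2d10 passed among them.

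**Figure D5:**
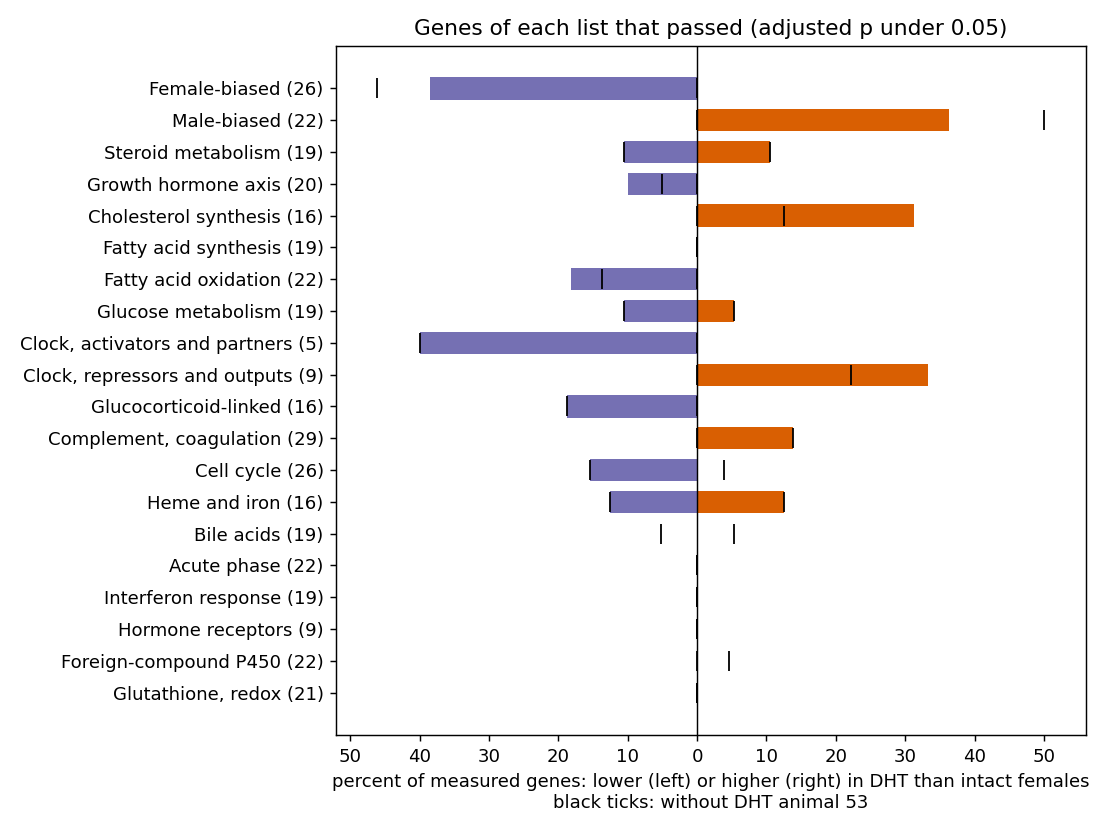
Percent of the measured genes of 20 lists (number measured in parentheses) that passed as lower (left, purple) or higher (right, orange) in DHT than in intact females, with black ticks for the same count without DHT animal 53. The female-biased and male-biased lists reach 10 of 26 lower and 8 of 22 higher, against 1.17% and 1.55% of all probes.

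The labelled tissue was checked with 11 lists of cell type markers. Of 10 measured hepatocyte markers 1 was lower, Ttr, and 0 higher. Of 14 markers of Kupffer cells and macrophages, 15 of lymphocytes and 12 of endothelium 0 passed in limma, with 4, 5 and 4 lower and 0, 0 and 1 higher at an unadjusted p under 0.05. Their summed level, taken as the mean over the list, spanned -0.46 to 0.08 in intact females and -0.75 to -0.24 in DHT females for Kupffer cells. It spanned -0.03 to 0.19 and -0.10 to -0.05 for lymphocytes, and 0.05 to 0.11 and -0.07 to -0.01 for endothelium, so the groups did not overlap in the last 2. Their part in the gene differences was not tested, and in whole liver fewer cells of a type and less RNA per cell cannot be told apart. Of 6 muscle markers Mylpf was higher, and 0 markers of neutrophils, stellate cells, bile ducts, adipocytes or pancreas passed in limma, with 0, 3, 1, 0 and 1 lower and 0, 0, 1, 0 and 0 higher at an unadjusted p under 0.05. Ratios to a pool give no absolute level, so whether a marker was absent was not measured.

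The DHT pellet in castrated males gave the same direction for nearly all of these probes when set against placebo. That comparison shares no animal with the female one, and 819 probes passed in it (3.47%), 450 higher (1.91%) and 369 lower (1.57%), with 335 in all without DHT male 62. Of the 642 probes of the female comparison 231 passed there in the same direction, 36.0% of the first list and 28.2% of the second, and 0 in the opposite direction. Whether passing or not, 610 of the 642 had the same direction and 32 (4.98%) the opposite one, against 39.2% opposite over all probes. In castrated males Hsd3b5 rose by 4.78 and Cyp2d9 by 1.52 with DHT, Hao2 fell by 3.50 and Cyp2b13 fell by 3.86, and Arntl fell by 1.38 and Per2 rose by 1.22. Castrated DHT animal 61 departed from its group on the sex-biased genes, at -3.19 for Hsd3b5 and 0.23 for Cyp2b13, as animal 53 did among the females.

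Castrated males with DHT against intact males gave 1491 passing probes (6.32%), 588 higher (2.49%) and 903 lower (3.83%), and between 762 and 2870 without intact male 8 or 11. Of the 642, 156 passed there in the same direction (24.3% and 10.5%) and 43 in the opposite one (6.7% and 2.88%). The direction was the same in 63.9% of the 642, against 41.0% of all probes. Some clock and fasting genes passed in the same direction in both sexes: Arntl fell by 1.90 in the males, Irs2 by 1.83 and Igfbp1 by 2.08, and Per2 rose by 1.77. Clpx, outside these groups, fell by 1.93. Nr1d2 did not pass in the males (0.29, adjusted p 0.32).

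The difference between the female and the male change was tested as an interaction, in which 901 probes passed (3.82%), 591 (2.51%) with the more positive change in females and 310 (1.32%) with the more positive change in males. Without both animals 53 and 61 the count was 726, 494 and 232 by direction, and without intact male 11 alone it was 2052. The 2 reference groups of the interaction, intact females and intact males, kept different gonads. The interaction alone cannot tell a difference in the response to DHT apart from a difference between these references. Against placebo, DHT raised Hsd3b5 in both sexes, as given above. Over the female-biased list the median difference of DHT against placebo was -0.60 in females and -0.76 in males, with -1.05 for the interaction. Over the male-biased list these medians were 0.72, 1.13 and 1.67. Whether the DHT step differed between the sexes was not tested. The 5 named genes with the highest interaction were Hsd3b5 (4.26 ± 1.03, adjusted p 0.013), Elovl3 (3.76 ± 0.59), Moxd1, a copper monooxygenase homologue (3.20, adjusted p 0.0054), Cyp2d9 (3.17 ± 0.60) and Nat8 (2.76 ± 0.48). The 5 with the lowest were Cyp2b13 (-5.69 ± 1.02), Slc22a26 (-5.42 ± 0.79), Sult3a1 (-4.94 ± 0.90), Cyp2b9 (-4.84 ± 0.86) and A1bg (-4.52 ± 1.09). Without animals 53 and 61 these 10 lay at 4.10, 3.68, 3.10, 3.73 and 2.71, and at -5.80, -5.45, -5.54, -4.81 and -4.70, and each passed. The mean of castrated DHT males lay above that of intact males by 2.17 for Cyp2b9 and 2.45 for Slc22a26 (adjusted p 0.026 and 0.0055 in limma). Both genes fell in the females. In the males animals 61 and 63 were the highest for both. Cyp2b9 lay at -4.72, -2.94, 0.29, -4.34 and -1.43 in castrated DHT males 59 to 63, against -6.03 to -3.97 in intact males. Slc22a26 lay at -4.43, -3.60, -0.08, -4.35 and -1.13, against -5.59 to -4.75. Moxd1 had 0.02 in the females and -3.18 in the males. Its intact males 8 to 12 were widely spread, at 2.24, 1.62, 1.05, -1.59 and 4.39, so animal 11 lay within the castrated DHT males, at -2.04 to -1.44. For Arntl the interaction was -0.19 (adjusted p 0.80), for Per2 0.14 (adjusted p 0.88) and for Clpx 0.19 (adjusted p 0.77), so a difference between the sexes was not detected for these. Pdk4 (-1.49, adjusted p 0.012), Defb1 (-1.45, adjusted p 0.0038), Nr1d2 (0.94, adjusted p 0.019) and Insig1 (1.21, adjusted p 0.034) changed more in the females, although Nr1d2 and Insig1 did not pass without animals 53 and 61 (adjusted p 0.074 and 0.058).

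Against ovariectomized females with an estradiol pellet, 893 probes differed in the DHT females (3.79%), 374 higher (1.59%) and 519 lower (2.2%), with 879 in all without animal 53 and between 281 and 1523 without estradiol animal 36 or 34. The estradiol pellet held 0.5 mg and gave 300 pg/ml in plasma, so the 2 hormones were not given at matched doses. This comparison shares its DHT animals with the one against intact females. Sult3a1 differed by -4.47, Cyp17a1 by -3.02, Hsd3b5 by 3.66 and Cyp2d9 by 2.71 between the 2 hormones, each of which passed. Of the female-biased list 12 of 26 were lower and of the male-biased list 9 of 22 higher than with estradiol. Of the 14 markers of Kupffer cells and macrophages 11 were also lower and 0 higher, with a median of -1.02, and the mean over that list spanned -0.28 to 1.52 in the estradiol and -0.75 to -0.24 in the DHT animals. Its part in this comparison was not tested. The estradiol animals were not alike: animals 33 and 34 had Cyp7b1 values of -2.57 and -2.92, against 0.84 to 1.35 in the other 3.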

How the data were processed

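RNA of 40 livers was hybridised to 2-colour arrays, 1 array per animal, against a pool of equal portions of all samples, per the labels' protocols. The deposited table holds log10 ratios of liver over pool. Background correction, normalization and centring by the authors are not given in the sources used here. Of the deposited values 29, on 16 probes, stop at the limit of 2 or -2 in log10, 9 of them in the 10 arrays compared. Values were multiplied by 3.32193 to give log2, and no column was left unused.

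Groups came from the labels. limma 3.58.1 in R 4.3.3 fitted one mean per group, 8 in all, to the 40 arrays (lmFit, eBayes, 32 residual and 3.42 prior degrees of freedom, median residual SD 0.15 in log2), for 7 contrasts. Tests are two-sided, and passing means an adjusted p (Benjamini-Hochberg, over 23574 probes) under 0.05. No batch, slide or date is in the labels, so none was tested. Names came from the platform annotation: 13665 probes had 1 symbol, 48 several and 9861 none, and 1003 of the first were outside the mouse RefSeq table. For the 1157 genes with several probes the one with the largest SD over 40 arrays stands for the gene. Sequences came from the RefSeq promoter table of GRCm38.p6. Summaries were made in Python 3.11 with pandas.

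The 10 arrays, the 38 gene lists and the naming rule were chosen with earlier results of these data known. The rule takes the 12 highest and 12 lowest named genes that passed without overlap, up to 4 members of each list with the smallest adjusted p, 16 hormone-related genes, and the 5 highest and 5 lowest genes of the interaction. Genes outside it are marked as named after their values were seen. The clock index and 11 marker means are given as ranges; the exact permutation test planned for them is not used, since these lists were chosen with results known. The fit was tested on simulated data: of 50 probes changed by 0.585 in log2, the fit for DHT against intact females recovered 42.

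Alternatives were leaving out each animal, array weights, quantile normalization, median centring, only the groups compared, named probes only, a robust prior, values at the limit as missing and the clock index as covariate. Leaving out animals 53 and 61 together, and the list counts without animal 53, were added after seeing the data.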

Additional observations from a re-analysis of the deposited data

Results flagged for a closer look

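In 66 named genes the 5 values of each of the 2 groups, 132 sets in all, were searched for a single value far from the other 4, by a gap over 0.71 of the group's range. Chance gives this in about 1 of 20 sets. The search found 21 sets, of which 16 were DHT animal 53. On the female-biased genes its log2 ratio was 0.95 for Sult3a1, 1.90 for Sult2a1, 1.36 for Hao2, 0.44 for Slc22a26, 0.13 for Cyp17a1, 0.76 for Cyp2b9 and 1.14 for Cyp2b13, above the other 4 DHT animals. On Cyp2d9 (-3.44), Cyp4a12a (-1.40), Nat8 (-2.39), Nudt7 (-0.48), Aox3 (-0.72) and Alas2 (-0.79) it lay below them. On the sterol genes Fdft1 (1.04), Sqle (1.21) and Idi1 (0.66) it lay above them, on the side away from the intact females. The other 5 sets belonged to different animals: DHT animal 50 for Nr1d1 (0.50), DHT animal 51 for Klkb1 (0.18), and intact animals 2 for Igfbp1 (1.85), 4 for Moxd1 (-1.03) and 5 for Adh4 (-1.04).

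For 27 of the 66 genes the change in females differed from that in males (interaction, limma, adjusted p under 0.05). Of these, 4 no longer passed without animals 53 and 61: Insig1 (adjusted p 0.058), Nr1d2 (0.074), Socs1 (0.089) and Gadd45b (0.154). As above, the interaction alone cannot tell a difference in the response to DHT apart from the difference between intact females and intact males. The change was more positive in females, in log2, for Hsd3b5 (4.26), Elovl3 (3.76), Moxd1 (3.20), Cyp2d9 (3.17), Nat8 (2.76), Cyp4a12a (2.73), C9 (2.36), Aox3 (1.93), Adh4 (1.71), Nudt7 (1.68), Alas2 (1.26), Stbd1 (1.25), Insig1 (1.21), Nr1d2 (0.94) and C2 (0.47). It was more negative in females for Cyp2b13 (-5.69), Slc22a26 (-5.42), Sult3a1 (-4.94), Cyp2b9 (-4.84), A1bg (-4.52), Hao2 (-4.24), Sult2a1 (-3.15), Ccnd1 (-1.71), Gadd45b (-1.51), Pdk4 (-1.49), Defb1 (-1.45) and Socs1 (-0.81). Among the genes outside the 66, all named after their values were seen, 9 also passed. Bmf (2.37), Slco1a1 (1.66), Egfr (1.56), Cyp2c40 (-2.31) and Slc22a27 (-2.42) were among them.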

How the results depend on the processing

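Of 87 genes examined singly, 72 passed between DHT and intact females, and 55 of these passed without each of the 10 animals in turn. With the clock index as covariate 66 of the 72 no longer passed. The index did not overlap between the 2 groups, which lowers the precision of this fit. Under it the sign changed in 5 genes, none of which passed (adjusted p 0.999 in limma): Per2 (-0.29), Nfil3 (0.33) and Dbp (-0.0757), which are themselves part of the index, Insig2 (0.0043, next to 0) and Bhlhe40 (-0.31). A robust prior and values at the limit as missing changed no call of the 87.

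Counts of passing probes moved more. With array weights they were 1779 for DHT against intact females, 31 for placebo against intact females, 1298 for DHT against placebo and 3075 for DHT against estradiol in females, 6220 and 3801 for castrated DHT against intact and against placebo males, and 6260 for the interaction. With the clock index they were 29 for DHT against intact females, 0 in limma for placebo against intact (610 at an unadjusted p under 0.05), 145 against estradiol and 16 against intact males. With named probes only, which tests fewer probes, they were 417, 13 and 149 in the first 3 comparisons, 843 and 489 in the males and 549 for the interaction. With only the groups compared, which uses fewer arrays, they were 1 for placebo against intact, 545 against placebo, 270 against estradiol, and 241 and 260 in the males. Quantile normalization gave 1232, 16 and 757 in the first 3 and 372 against intact males. The cause of these moves was otherwise not tested.

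Leaving out single animals gave 410 to 713 probes for DHT against intact females, and only DHT animal 54 (410) moved the count by over 1.5 times. In the other comparisons several animals did, in either direction. For placebo against intact the range was 2 to 23, with 23 without placebo animal 20, 5 without 18, 3 without intact animal 3 and 2 without 1, 2, 4, 16, 17 or 19. For DHT against placebo it was 89 to 443, with 89, 121, 116, 443 and 90 without DHT animals 50 to 54, and 159, 146, 128 and 173 without placebo animals 16, 18, 19 and 20. For DHT against estradiol it was 281 to 1523, with 562, 560 and 495 without DHT animals 50, 52 and 54, and 1523, 538, 281 and 460 without estradiol animals 34 to 37. Castrated DHT against intact males gave 762 to 2870, with 762, 960, 2870 and 981 without intact males 8, 10, 11 and 12 and 861 without animal 61. Against placebo males it gave 335 to 1115, with 338, 500 and 335 without DHT males 59, 60 and 62, and 491 and 425 without placebo males 24 and 27. The interaction gave 526 to 2052, with 1394 without intact female 1, 545 and 2052 without intact males 8 and 11, 583 without DHT female 50 and 526 without DHT male 61. The group differences in clock index and marker means were also followed in median-centred and quantile-normalized values and without each of the 10 animals. They moved by less than the larger of the 2 group SDs. In some lists they moved by more than the smaller SD. The lymphocyte difference went from -0.124 to -0.091 without intact animal 3, with SDs of 0.084 in the intact and 0.018 in the DHT animals.

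Signal over background is unknown, so weak probes could not be told apart from silent ones. No paired analysis was possible because each animal number occurs in 1 group.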
